A study of Mus musculus with 9 samples.

Results

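Palmitic acid, the commonest saturated fatty acid of the diet, was compared with no treatment in the mouse insulinoma line β-TC6, which comes from transgenic mice and secretes insulin, and the readout was long non-coding RNA (lncRNA) abundance by sequencing of RNA depleted of ribosomal RNA. The comparison took 6 of the 9 libraries of the series, 3 of untreated cells and 3 of cells given 400 µmol/L palmitic acid for 24 h with 1.3% bovine serum albumin. The remaining 3 libraries, given stearic acid at the same dose and time, entered the filter on low counts, the average levels and the estimate of the spread between replicates, and no difference here is taken from them. The sources used here do not state the albumin of the untreated cells, so the acid and its albumin carrier cannot be told apart. Separate cultures are not stated for the replicates, so the p-values measure a spread that may be technical. The unit of analysis was the locus, the sum of all transcripts that the deposited table places under one assembled gene identifier (XLOC). Of 9635 loci in the table, holding 15589 transcripts, 7408 had a count in a library and 3039 passed the filter on low counts and were tested.

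LncRNAs are transcripts with no long open reading frame. Many lie antisense to a coding gene, start back to back with one from a shared promoter, or stand alone between genes, and some act on the transcription of a neighbouring gene while others act in the nucleus or cytoplasm away from their own locus. In β cells, lncRNAs are transcribed at many genes of islet identity, and long exposure to palmitic acid is known to lower insulin gene expression and to raise stress responses and cell death.

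The start regions of 4 loci described below are shown, chosen after their values and matches were seen: an intronic locus that fell, a lncRNA beside a cell cycle inhibitor gene that fell, one of several loci at Cd82 that rose, and a locus that rose whose start region held p53-type matches. Each runs 5′ to 3′ on the strand of the lncRNA, from 250 bases before to 50 bases after the start that RefSeq gives on GRCm38.p6, in lower case with motif matches in capitals.
4933401H06Rik: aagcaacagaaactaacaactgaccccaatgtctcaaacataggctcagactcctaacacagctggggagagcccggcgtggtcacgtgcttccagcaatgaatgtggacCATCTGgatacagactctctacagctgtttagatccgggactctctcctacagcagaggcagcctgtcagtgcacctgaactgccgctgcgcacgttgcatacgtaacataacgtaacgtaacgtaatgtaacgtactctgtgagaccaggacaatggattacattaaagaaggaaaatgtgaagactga
Lockd: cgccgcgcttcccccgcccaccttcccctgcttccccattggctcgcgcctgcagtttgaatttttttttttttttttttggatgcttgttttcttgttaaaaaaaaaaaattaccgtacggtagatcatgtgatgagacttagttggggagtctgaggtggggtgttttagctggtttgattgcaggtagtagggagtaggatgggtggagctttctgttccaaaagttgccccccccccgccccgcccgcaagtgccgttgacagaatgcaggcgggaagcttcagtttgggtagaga
Gm10804: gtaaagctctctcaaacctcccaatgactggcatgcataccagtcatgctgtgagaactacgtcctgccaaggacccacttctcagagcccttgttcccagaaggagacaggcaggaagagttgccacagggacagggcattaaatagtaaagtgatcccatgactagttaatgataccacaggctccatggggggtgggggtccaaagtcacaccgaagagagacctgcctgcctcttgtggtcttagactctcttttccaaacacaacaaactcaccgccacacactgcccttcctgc
Gm7967: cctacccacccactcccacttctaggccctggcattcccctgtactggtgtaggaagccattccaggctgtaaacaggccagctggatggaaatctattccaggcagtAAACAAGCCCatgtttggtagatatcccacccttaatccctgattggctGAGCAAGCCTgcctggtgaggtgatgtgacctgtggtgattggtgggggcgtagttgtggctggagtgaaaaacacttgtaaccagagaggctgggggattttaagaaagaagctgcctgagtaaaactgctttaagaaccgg
They lie at chr3:135840220-135840519 (minus strand), chr6:134928842-134929141 (plus strand), chr2:93452569-93452868 (plus strand) and chr1:98589267-98589566 (plus strand). Of 52 called loci with a GENCODE lncRNA name, 25 names were in the promoter table and 15 had a start within 100 bases of the locus. Both strands were searched for 6 motifs, an E-box of the NeuroD type (CAGATG), a MAF core (TGCTGAC), the p53 decamer, and the ATF4-CHOP, NF-κB and sterol response elements, and overlapping matches were counted. The capitals in 4933401H06Rik mark an E-box match on the reverse strand, starting at -140 from the RefSeq start, and those in Gm7967 mark 2 matches to the p53 decamer at -142 and -93. Lockd and Gm10804 held no match of the 6. Most counts of the 4933401H06Rik locus were in TCONS_00167285, at 20.1, 21.5 and 22.1 CPM in controls. On the minus strand that transcript starts at chr3:135838611, inside the locus, so the region shown is not its start. The p53 decamer matched 2 of 10 promoters of loci that rose, 0 of 5 that fell, 5.64% of 319 promoters of tested loci and 8.36% of all 32851 promoters in the table. The E-box matched 0 of 10 and 1 of 5, against 12.9% and 17.2%. Matches in the 15 promoters were thus 4 in all, counting a further p53 decamer in B230206H07Rik, and these counts are too small to set against the shares.

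Control libraries held 1839123 to 2870275 counts over lncRNAs and palmitic acid libraries 2484333 to 2755266, with 4649 to 5091 loci above 0 in each. The table holds no coding genes, so the cell type was checked only through lncRNAs within 10 kb of marker genes. LncRNAs at genes of β cells summed to 17560.3 to 18051 CPM (counts relative to the library total after TMM scaling) in controls and 12718 to 13242 CPM with palmitic acid. Most of that difference lies in Igf2os, at group means of 4101 and 1727 CPM, and the Mafa antisense locus, at 2468 and 959 CPM. LncRNAs at α-cell markers summed to 67.2 to 71.6 and 85.4 to 97.9 CPM, and those at macrophage markers, a single locus at Cd68, to 95.7 to 316 and 145 to 200.4 CPM. No tested locus lay near the δ-cell, acinar, duct, fibroblast or endothelial markers. The part of other cell types in the changes below was not tested, and in bulk RNA fewer cells of a kind and less RNA per cell cannot be told apart.

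With palmitic acid 169 of 3039 loci changed, which is 5.56%, by edgeR's quasi-likelihood test at a Benjamini-Hochberg adjusted p under 0.05. Of these, 112 rose (3.69%) and 57 fell (1.88%). The Wald test of DESeq2 called 197 loci (6.48%). The loci that rose did so by a median of 1.17 on the log2 scale and those that fell by a median of -1.02, against -0.02 over all tested loci. A change of at least 2-fold was estimated for 69 of the loci that rose and 30 of those that fell, at least 4-fold for 31 and 6, and at least 8-fold for 11 and 2. All 3 palmitic acid libraries lay above all 3 controls at 111 of the 112 loci, where 14.1% of all tested loci showed that order, and below them at 56 of the 57, where 12.8% did. In simulated counts of the same design the test called 50% of 2-fold and 92.6% of 4-fold changes, and 7 of 2737 unchanged loci.

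**Figure D1:**
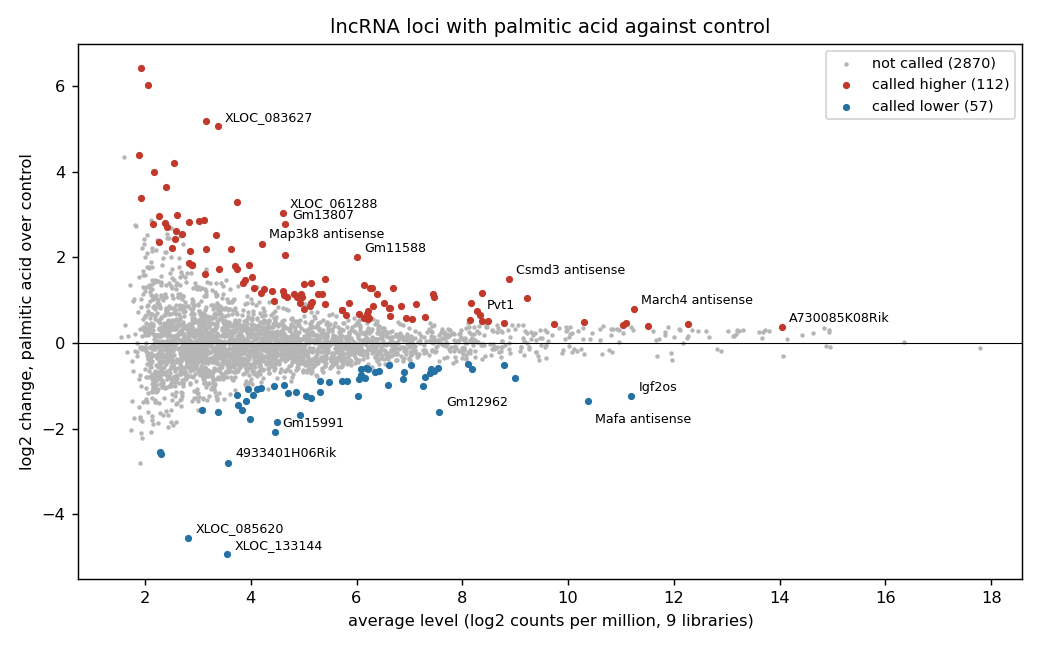
Each point is a tested lncRNA locus, with its average level over 9 libraries on the x axis (log2 CPM) and its log2 change with palmitic acid on the y axis. The 2 highest red points have no control counts, so their height is a fitted value and no measured fold, and the 57 loci that fell (blue) include Mafa antisense and Igf2os among the loci with the highest counts.

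The locus antisense to Mafa had the smallest adjusted p of the comparison. Mafa encodes a transcription factor that drives the insulin gene in mature β cells. The lncRNA, chr15:75745489-75746963 (plus strand), has 1 transcript of 2 exons. Its levels were 2448, 2599 and 2358 CPM in the 3 control libraries and 925, 965 and 988 CPM with palmitic acid. The groups were far apart, and the highest palmitic acid library was below every control by more than its own level. The fall was 2.57-fold, a log2 change of -1.36 ± 0.13 (SE; edgeR adjusted p = 3.56e-07). It passed in each of 6 fits that left out a control or palmitic acid library.

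Igf2os, transcribed opposite the imprinted growth factor gene Igf2 and beside the insulin gene Ins2, also fell. The locus lies at chr7:142658897-142670356 (plus strand) with 5 transcripts. Control libraries held 3810.0, 4548 and 3944 CPM and palmitic acid libraries 1729, 1605 and 1846 CPM. The lowest control was above every treated library by more than the range of either group. The log2 change was -1.25 ± 0.13 (edgeR adjusted p = 9.25e-07). Of 9 tested loci matched to imprinted lncRNAs, 0 rose and 1, Igf2os itself, fell, where 1.88% of all tested loci fell. Snhg14 stands for more than 1 of the 9, and a locus labelled Ftx was matched through Xist. Of the others, Meg3, Airn, Nespas, Snhg14 and Kcnq1ot1 did not pass, with log2 changes between -0.48 and 0.31.

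LncRNAs at genes of β-cell identity and secretion were counted as a group, and 1 rose, 4 fell and 22 did not pass of 27 tested, with a median log2 change of -0.15, where 3.69% of all tested loci rose, 1.88% fell and the median was -0.02. Besides the loci at Mafa and Ins2, a locus 518 bases from Scg2, the gene of the granule protein secretogranin II, fell from 40.9 ± 10.6 to 18.02 ± 8.43 CPM (mean ± SD, n = 3; log2 -1.17, edgeR adjusted p = 0.0174). The antisense locus at Chga, the gene of the granule protein chromogranin A, fell from 342 ± 28.2 to 244 ± 16.3 CPM (log2 -0.49, edgeR adjusted p = 0.0416). The Scg2 locus passed in 3 of the 6 fits without a library and the Chga locus in 0, where its adjusted p reached 0.177. Loci at Pdx1 (Plut), Pax6, Nkx2-2 and Neurod1 had log2 changes of -0.05, -0.04, -0.10 and -0.05 and did not pass. Those at Slc30a8, the granule zinc transporter gene, and Pcsk2 (Pcsk2os1), the gene of a prohormone convertase, were at -0.30 and -0.15. Pcsk2 had further tested loci, Pcsk2os2 at -0.20, XLOC_086085 at -0.36 and XLOC_086087 at 0.08. The last had the highest level of the Pcsk2 loci, with group means of 3159 and 3334 CPM. Loci at Slc2a2, Isl1, Ero1lb and Chgb were at -1.08, 0.05, 0.25 and 0.61 and did not pass either. A second locus near Ins2, XLOC_136495, went from 14.2 to 5.80 CPM at an adjusted p of 0.0538, just outside the threshold.

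**Figure D2:**
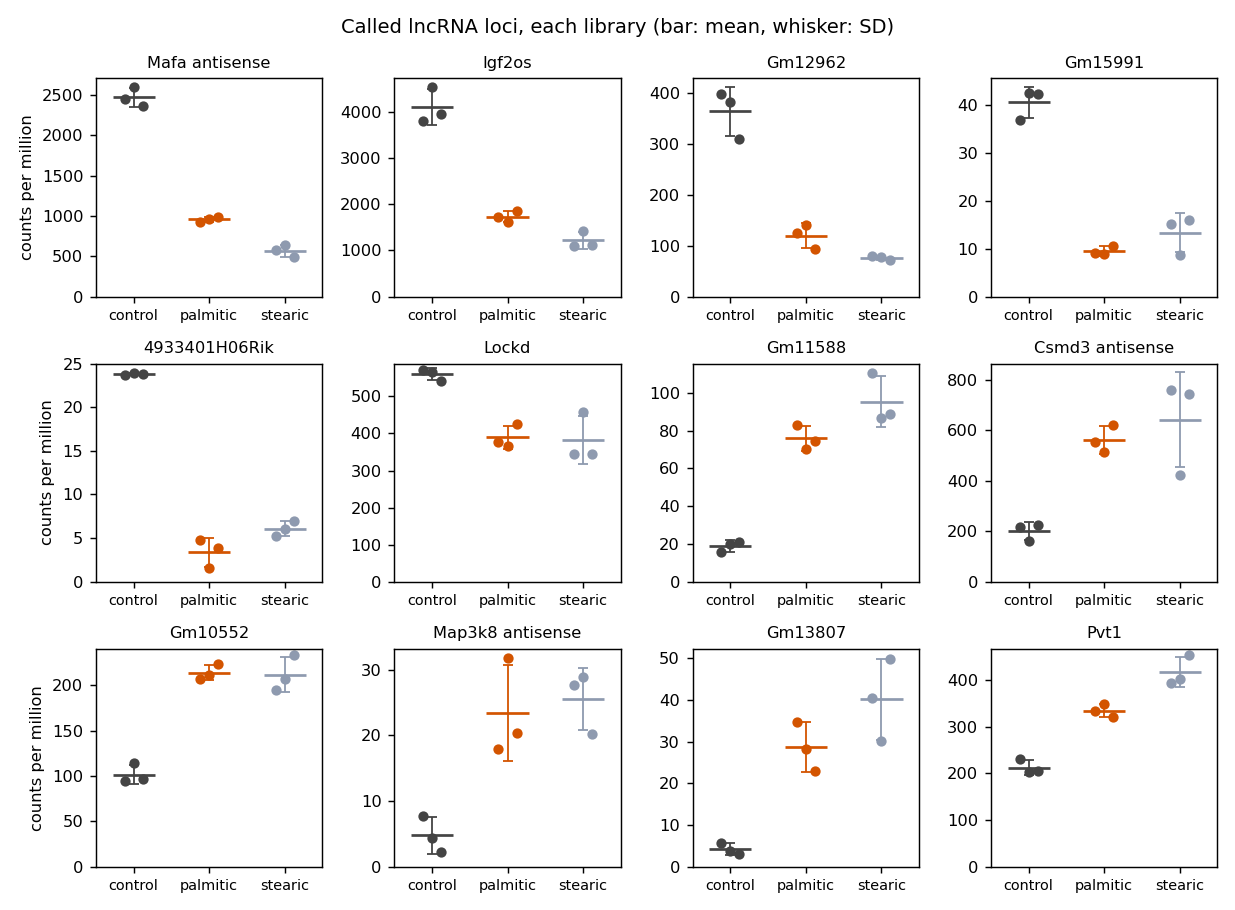
Level in CPM of 12 loci in each library, with 3 points per group, the mean as a bar and the SD as a whisker. In each panel the 3 palmitic acid libraries lie on one side of the 3 controls, and the stearic acid libraries are shown beside them with no test.

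Among the other loci that fell, Gm12962 had the largest decrease of those at or above the median level of the called loci. This intergenic lncRNA at chr4:131533007-131677845 (minus strand) went from 399, 384 and 309 CPM in controls to 124, 141 and 93.5 CPM. Its neighbour XLOC_106336, 47.2 kb away on the same strand, fell by 1.85 on the log2 scale. The change of Gm12962 was -1.60 ± 0.16 (edgeR adjusted p = 6.38e-07). Gm27168, on chromosome 8, fell from 117 ± 23.6 to 50.0 ± 7.54 CPM (edgeR adjusted p = 1.70e-04), and XLOC_143609, which overlaps it on the other strand, fell by 0.84 on the log2 scale. Reads of such overlapping loci cannot be told apart if counting ignored strand, which is not stated; 29 of the 169 called loci overlap a counted lncRNA locus on the opposite strand, as do 314 of the 3039 tested.

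Several of the loci that fell lie antisense to coding genes. The locus opposite Dock1, which encodes an activator of the small GTPase Rac, went from 69.6, 60.0 and 52.4 to 25.3, 30.2 and 25.9 CPM, with no overlap (log2 -1.16, edgeR adjusted p = 6.89e-04). The locus opposite the transporter gene Abcc6 went from 149 ± 21.0 to 75.1 ± 21.1 CPM (edgeR adjusted p = 0.00262). Gm12279, which only partly lies opposite the polyubiquitin gene Ubb, went from 78.4 ± 7.78 to 42.1 ± 5.82 CPM (edgeR adjusted p = 0.00249). Its transcript TCONS_00043157, which reaches chr11:62551180, is classed as antisense, and TCONS_00043156, which reaches chr11:62551165, as intergenic. For all antisense loci, signal from the coding gene cannot be told apart from the lncRNA if strand was ignored in counting. XLOC_003521 and XLOC_037566, both intergenic, fell by 0.92 and 0.89 on the log2 scale. XLOC_002228 was the one named locus that fell whose libraries overlapped, with 174, 336 and 114 CPM in controls and 67.8, 137 and 102 CPM with palmitic acid. It passed in 2 of the 6 fits without a library, and its adjusted p reached 0.414.

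LncRNAs near cell cycle genes gave 0 that rose and 1 that fell of 5 tested, where 1.88% of all tested loci fell. That one was Lockd, 3579 bases from Cdkn1b, the gene of the cell cycle inhibitor p27, at 572, 566 and 542 CPM in controls and 377, 367 and 425 CPM with palmitic acid. The groups did not overlap, and the log2 change was -0.52 ± 0.14 (edgeR adjusted p = 0.0229). It passed in 1 of the 6 fits without a library.

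Steep decreases occurred at loci of lower counts, also named after their values were seen. XLOC_133144, on chromosome 7, held 30.9, 31.7 and 25.6 CPM in controls and 2.57, 0 and 0 CPM with palmitic acid. It was at 0 in palmitic acid libraries 2 and 3 and held 7.47 counts in library 1, and the log2 change was -4.94 ± 0.83 (edgeR adjusted p = 3.99e-04). Its 1 transcript was not called in the fit of transcripts, with a log2 change of -4.95 ± 1.64. Its expected counts were not whole numbers in the controls either, at 64.2, 65.26 and 68.59. The part of read sharing by estimate in its values at 0 was not tested. 4933401H06Rik, inside the zinc and manganese transporter gene Slc39a8 on the other strand, held 23.7, 23.9 and 23.8 CPM in controls and 4.76, 1.53 and 3.83 CPM with palmitic acid. The controls were close to each other and above every treated library, and the log2 change was -2.80 ± 0.40 (edgeR adjusted p = 5.01e-05). Gm15991, opposite the Arf exchange factor gene Psd3, held 36.8, 42.4 and 42.4 CPM and 9.16, 8.78 and 10.6 CPM (log2 -2.09 ± 0.27, edgeR adjusted p = 1.80e-05).

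On the side of the increases, Gm11588 had the smallest adjusted p. This known intergenic lncRNA on chromosome 1, at chr1:61440101-61477251 (plus strand), has 6 transcripts. It went from 15.5, 19.99 and 21.2 CPM in controls to 83.2, 70.2 and 74.4 CPM with palmitic acid. The lowest treated library was above every control. The rise was 4.02-fold, a log2 change of 1.998 ± 0.19 (edgeR adjusted p = 4.45e-07). XLOC_061288, on chromosome 16, went from 1.93, 4.39 and 3.72 to 30.8, 23.7 and 30.2 CPM (log2 3.04 ± 0.33, edgeR adjusted p = 1.59e-06).

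Other loci with large increases at higher counts were mostly intergenic. Gm5860 rose from 19.3 ± 2.24 to 54.9 ± 5.78 CPM (edgeR adjusted p = 1.80e-05). Gm7967, whose start region is printed above, rose from 21.3, 16.6 and 21.2 to 36.6, 47.0 and 47.2 CPM, with no overlap (log2 1.139 ± 0.23, edgeR adjusted p = 0.00328). The antisense locus in Csmd3, a gene of a large membrane protein, rose from 215, 160.4 and 226 to 552, 512 and 622 CPM, with no overlap (edgeR adjusted p = 9.08e-06). 2810414N06Rik starts 353 bases from Edem3, which encodes a mannosidase-like protein of endoplasmic reticulum degradation, and rose from 16.7 ± 5.203 to 44.9 ± 5.60 CPM (edgeR adjusted p = 3.20e-04). A locus 3912 bases from the helicase gene Dhx40, XLOC_021670, rose from 119.9, 153 and 132 to 321, 283 and 309 CPM (edgeR adjusted p = 6.20e-06). XLOC_134192 near Tex36, Gm14264, XLOC_038850, XLOC_045853 and Gm28592, opposite Nap1l1 and Phlda1, rose by 1.35, 1.29, 1.28, 1.28 and 1.15 on the log2 scale. The first 4 of these passed in all 6 fits without a library and Gm28592 in 4.

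LncRNAs at genes of inflammation gave 2 that rose, 0 that fell and 2 that did not pass of 4 tested, with a median log2 change of 0.83, where 3.69% of all tested loci rose. Only the genes Sp140 and Map3k8 stand behind these loci, with 3 of the 4 at Sp140. Gm10552 lies opposite Sp140, a chromatin reader gene of immune cells, at 94.3, 114 and 96.2 CPM in controls and 207, 211 and 223 CPM with palmitic acid. The groups did not overlap, and the log2 change was 1.07 ± 0.14 (edgeR adjusted p = 2.62e-05). The locus opposite Map3k8, which encodes a kinase of Toll-like and TNF receptor signalling, held 7.74, 4.39 and 2.23 CPM and 17.96, 31.7 and 20.4 CPM, again with no overlap. It rose by 2.32 ± 0.38 on the log2 scale (edgeR adjusted p = 2.98e-04). Of 3 tested immune lncRNAs, 2 rose (3.69% of all loci), Gm10552 again and Lncenc1, which is best known from mouse embryonic stem cells. Lncenc1 was at 0, 2.44 and 2.23 CPM in controls and 5.50, 8.40 and 8.08 CPM with palmitic acid (edgeR adjusted p = 0.0454), and passed in 0 of the 6 fits without a library.

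Stress and p53 lncRNAs gave 2 that rose, 0 that fell and 3 that did not pass of 5 tested, where 3.69% of all tested loci rose. Trp53cor1, a p53 target also known as lincRNA-p21, held 8.70, 15.1 and 11.5 CPM in controls and 26.4, 26.3 and 24.2 CPM with palmitic acid, with no overlap (log2 1.12 ± 0.26, edgeR adjusted p = 0.0102). Pvt1, beside the Myc gene, held 230.2, 202 and 204 CPM and 334, 348 and 321 CPM. The groups did not overlap, and the log2 change was 0.66 ± 0.13 (edgeR adjusted p = 0.00326). Near genes of apoptosis and p53, 2 loci rose, by less than 1.5-fold, and 0 fell of 10 tested, where 3.69% of all tested loci rose. XLOC_030548, opposite the recombination gene Rad51b, went from 1715 ± 101 to 2309 ± 24.5 CPM, and XLOC_060910, near the excision repair gene Ercc4, from 686 ± 31.4 to 929 ± 31.2 CPM (edgeR adjusted p = 0.0234 and 0.0289). They passed in 1 and 0 of the 6 fits. Loci at Bax, Mdm2 and Gadd45a were at log2 changes of -0.35, 0.68 and -0.39 and did not pass.

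A further 3 lists held no locus that passed. They had 8 tested loci near endoplasmic reticulum stress genes, 9 near sterol synthesis and desaturation genes and 11 of abundant nuclear lncRNAs. The median log2 changes of the 3 lists were 0.00, 0.21 and 0.24. Gm26917 and Firre each stand for more than 1 of the 11 loci, and the Ftx locus matched through Xist is among them. Malat1 was at 8650.1 CPM in controls and 10696 CPM with palmitic acid in the group means (log2 0.31, edgeR adjusted p = 0.172) and Neat1 at 914 and 1082 CPM (log2 0.24, edgeR adjusted p = 0.413). Of the islet lncRNAs, Pvt1 rose, Igf2os fell and 8 of 10 did not pass, where 5.56% of all tested loci were called. The lists of snoRNA hosts (3 tested), fatty acid oxidation (1), α-cell (2) and macrophage (1) loci also held none that passed.

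Called loci with the highest counts included 4 that rose besides Igf2os, which fell. A730085K08Rik, which partly lies opposite Abhd5, rose from 14943, 14862 and 14614 to 18443, 18823 and 20318 CPM, a log2 change of 0.37 ± 0.11 (edgeR adjusted p = 0.0440). Abhd5 encodes an activator of triglyceride breakdown. Nearly all of the signal was in TCONS_00268261, classed as intergenic, with group means of 14691 CPM in controls and 19377 CPM with palmitic acid. The transcript classed as antisense, TCONS_00268257, was at 34.8 and 46.5 CPM. XLOC_054418 and XLOC_103850, both intergenic, rose by 0.43 and 0.40 on the log2 scale. These 3 did not pass in any of the 6 fits that left out a library, although their groups did not overlap. The locus opposite the ubiquitin ligase gene March4 rose from 1679 ± 218 to 2901 ± 539.6 CPM (edgeR adjusted p = 0.00412) and passed in all 6. At the other end, XLOC_001541 and XLOC_060268 were at 0 in every control library and at 1.83, 4.96 and 7.23 and 2.93, 2.67 and 5.10 CPM with palmitic acid. Taking 3 counts in the summed controls as the floor, which covers counting error only, they were at least 10.6-fold and at least 8.10-fold higher.

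A group of 4 called loci lay around Cd82, the gene of a tetraspanin of the cell surface, on chromosome 2, a place chosen after the values were seen. On the strand opposite Cd82, XLOC_083627 lies 9842 bases before the gene, Gm10804 overlaps its start and Gm13807 lies just past its end. XLOC_083627 held 0.484, 0 and 0.372 CPM in controls and 11.7, 8.40 and 14.9 CPM with palmitic acid (log2 5.07 ± 0.65, edgeR adjusted p = 1.49e-05). It was at or near 0 in the controls. Gm10804, whose start region is printed above, held 43.5, 28.8 and 30.8 and 78.1, 62.6 and 54.8 CPM (log2 0.93 ± 0.19, edgeR adjusted p = 0.00412). Gm13807 held 5.80, 3.90 and 2.97 and 34.8, 28.2 and 23.0 CPM (log2 2.78 ± 0.33, edgeR adjusted p = 6.20e-06). On the strand of Cd82 and further past its end, XLOC_085620 went the other way, with 6.29, 27.8 and 15.6 CPM in controls and 0.366, 0.763 and 0.850 CPM with palmitic acid (log2 -4.55 ± 0.69, edgeR adjusted p = 1.36e-04). Its controls were widely spread, yet the lowest was above every treated library. In kb from the start of Cd82 along its strand, XLOC_085620 runs from 83.4 to 101.5. Cd82 ends at 44.0 and the gene Tspan18, on the same strand, starts at 128.6, so this locus is nearer to Tspan18. Cd82 itself is not in the lncRNA table.

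**Figure D3:**
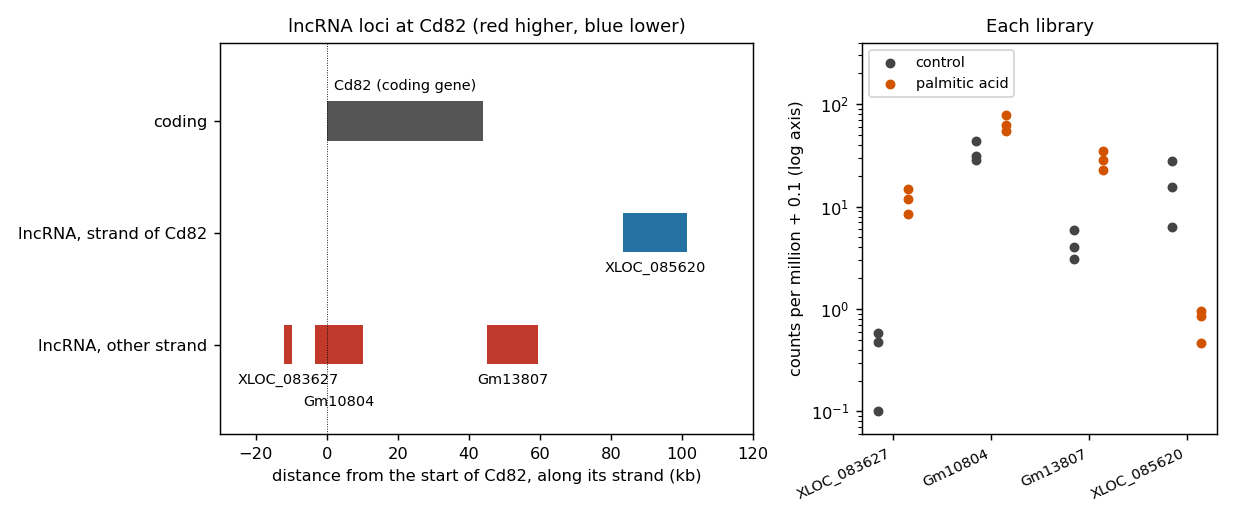
Left, lncRNA loci around Cd82 by distance in kb from the start of the gene along its strand, with loci that rose in red. The locus that fell is in blue and is nearer to Tspan18, a gene outside the range shown. Right, their CPM (plus 0.1, log axis) in each control and palmitic acid library, where the groups do not overlap at any of the 4 loci.

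Called loci lay close to each other in other places too. Of the 169, 17 had another called locus within 100 kb (10.1%), as did 117 of all 3039 tested (3.85%). The 17 include the 4 loci around Cd82, and most of the others overlap another called locus. Among these, XLOC_000779 and XLOC_000784 overlap on the same strand and both carry the name Gm16028. The share therefore does not count separate transcription units. At Dhx15, an RNA helicase gene, 9230114K14Rik and C130083M11Rik overlap on opposite strands and rose by 0.92 and 1.15 on the log2 scale. XLOC_001120 and XLOC_003054, which overlap on chromosome 1, rose by 2.87 and 3.30. By chromosome, 16 loci rose and 5 fell of 199 tested on chromosome 1, a share that rose of 8.04%. On chromosome 8, 2 rose and 9 fell of 162, a share that fell of 5.56%. Over all tested loci, 3.69% rose and 1.88% fell. Both chromosomes were picked after the values were seen, as those with the most loci that rose and the most that fell. These shares were not tested.

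By the class in the deposited table, 82 intergenic loci rose and 35 fell of 1708 tested (6.85% called), against 17 and 12 of 903 antisense loci (3.21%), 4 and 2 of 144 intronic loci and 9 and 8 of 284 loci of mixed class. By position against GENCODE genes, 54 rose and 25 fell of 913 loci more than 10 kb from a coding gene (8.65%). Of 1291 loci over a coding gene on the opposite strand, 30 rose and 19 fell (3.80%), and of 387 upstream within 10 kb on the opposite strand, the back-to-back layout, 16 rose and 4 fell. Loci that the table marks as known gave 19 and 8 of 519 (5.202%), and the others 93 and 49 of 2520 (5.63%), both close to the 5.56% over all loci.

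Size and level were described by medians, with no test. The median span was 13.7 kb for loci that fell, 9.25 kb for those that rose and 7.40 kb over all tested. In FPKM, which is per length, the medians were 20.7, 14.4 and 10.5. Of the third of loci with the fewest counts 30 rose and 3 fell, and of the third with the most counts 54 rose and 37 fell, with 3.26% and 8.98% called. Loci with 1 transcript were called at 3.73% and those with more at 7.47%, and loci over 20 kb at 7.93% against 2.69% for those up to 2 kb. The counts behind a locus move with its length and number of transcripts, and their part in these shares was not tested.

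**Figure D4:**
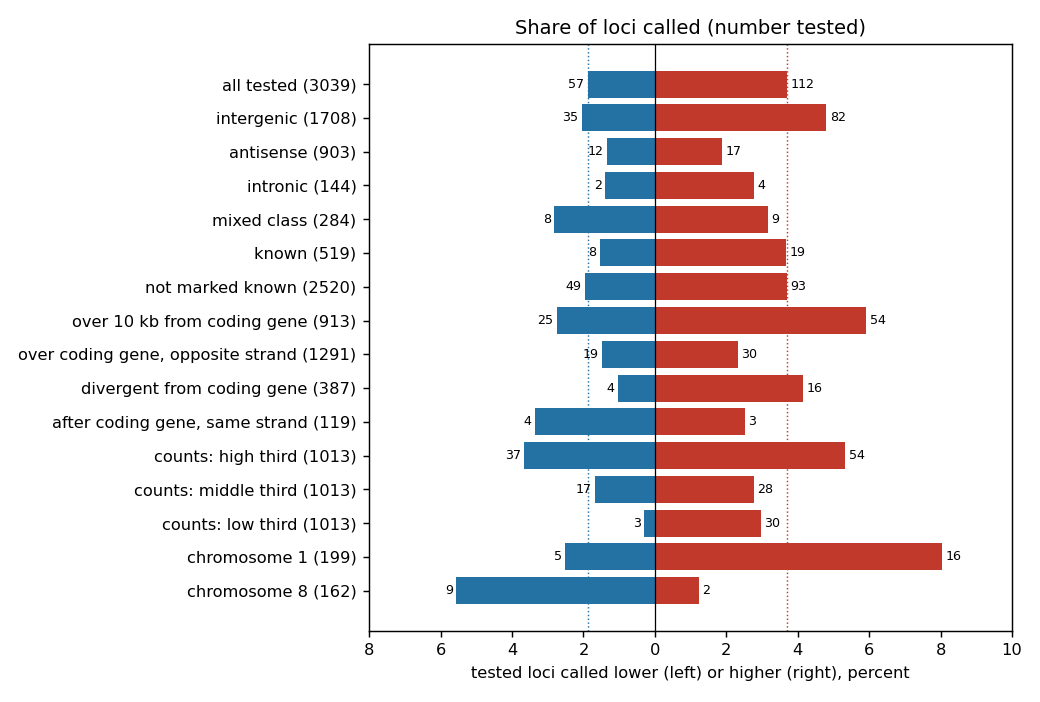
Percent of tested loci that rose (red, right) or fell (blue, left) by class, position, count level and chromosome, with the number called at each bar, the number tested in brackets and dotted lines at the shares over all loci. Bars for loci over 10 kb from a coding gene (5.91% rose) and for chromosome 8 (5.56% fell) reach past the lines.

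Single transcripts gave far fewer calls than loci. Of 4426 transcripts tested, 18 changed (0.407%), 13 that rose (0.294%) and 5 that fell (0.113%). The spread was larger, with a biological coefficient of variation of 0.564 for transcripts and 0.204 for loci. In simulated counts, 6.90% of 2-fold and 43.7% of 4-fold changes of transcripts were called. Of the 18, 17 lie at loci called in the same direction. The smallest adjusted p among those that fell were for the Mafa antisense transcript TCONS_00088788 (edgeR adjusted p = 0.00346), the Igf2os transcript TCONS_00233737 (edgeR adjusted p = 0.0207) and the Gm12962 transcript TCONS_00184470 (edgeR adjusted p = 0.0207). Among those that rose they were for TCONS_00038546 of XLOC_021670 (edgeR adjusted p = 0.0126), and then, tied at an edgeR adjusted p of 0.0207, TCONS_00009134 of Gm10552, TCONS_00139241 of Gm13807, TCONS_00068951 of XLOC_038850 and TCONS_00088303 of the Csmd3 antisense locus. Without one of the 6 libraries, TCONS_00088788 passed in all 6 fits, TCONS_00009134 and TCONS_00038546 in 1 each and the other called transcripts in 0.

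The one called transcript at a locus that was not called was TCONS_00098808 of 2610020C07Rik, antisense to Gspt1, a gene of translation termination. It was at 0 in every control and at 13.4, 12.5 and 38.8 CPM with palmitic acid, at least 49.2-fold higher by a floor that covers counting error and not the sharing of reads among transcripts. It passed in 0 of the 6 fits without a library. The sum of its locus was at a log2 change of 0.24 with an adjusted p of 0.457. In the Map3k8 locus TCONS_00119905 was likewise at 0 in every control and at 9.65, 13.6 and 16.2 CPM with palmitic acid, at least 30.1-fold higher by the same floor, and it too passed in 0 of the 6 fits.

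Of 165 called loci with a tested transcript, 81 had 2 or more. In 48 of these all tested transcripts were estimated in the direction of the locus, and in 33 at least 1 went against it. Of 15 tested Pvt1 transcripts, 10 had an estimate above 0 and 5 below. The median SE of the log2 change was 0.18 for these loci and 0.76 for their transcripts.

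**Figure D5:**
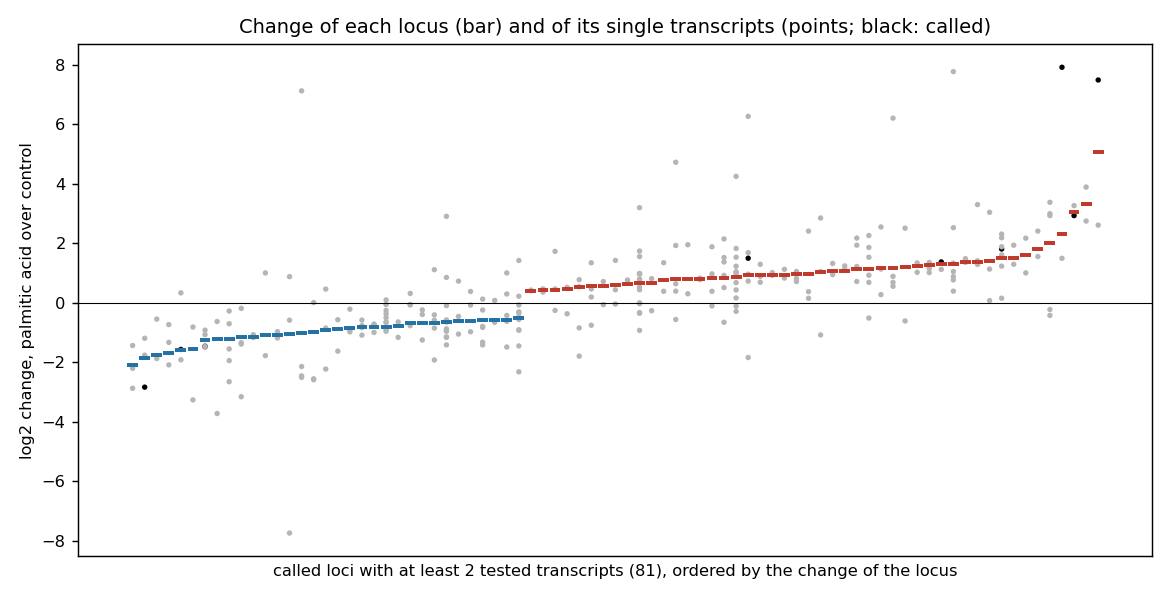
Log2 change with palmitic acid of the 81 called loci with at least 2 tested transcripts (bars, red rose and blue fell) and of each tested transcript (points, black where called; points of transcripts at 0 in every control are fitted values and no measured fold). In 33 of the 81 loci a transcript lies on the other side of 0 from its locus.

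The authors' deposited table for this comparison lists 81 transcripts, 53 higher and 28 lower with palmitic acid, at 70 loci. Of the loci in the authors' deposited table, those called here numbered 45, which is 64.3% of theirs and 26.6% of the 169. The smallest absolute log2 change in the authors' deposited table is 1.005, per transcript. The 169 are loci with no limit on fold, and 99 of them changed by at least 2-fold. The shares thus set unlike thresholds and units side by side. At those loci 52 of the transcripts in the authors' deposited table had the direction of the locus and 1, TCONS_00260772, the opposite, while 28 lie at loci that were tested and not called.

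Levels with stearic acid are given beside those above with no comparison of the changes, since both acids share the 3 control libraries. The Mafa antisense locus was at 577, 637 and 492 CPM, Igf2os at 1104, 1427 and 1112 CPM and Gm12962 at 79.4, 77.8 and 72.4 CPM with stearic acid. Among loci that rose with palmitic acid, Gm11588 was at 111, 86.5 and 88.9 CPM, Pvt1 at 394, 402 and 454 CPM and Gm10552 at 194, 207 and 233 CPM with stearic acid.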

How the data were processed

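Per the submitters' processing notes, reads were handled with bcl2fastq 2.17.1.14, Trimmomatic 0.30, HISAT2 2.0.1, HTSeq 0.6.1 and DESeq on mm10. For the transcript assembler, the tool behind the estimates and the strand setting, nothing is stated in the sources used; the library kit marks strand, per the labels' protocols. Each transcript has, in the deposited table, an expected count (estimated reads, 77.9% of them whole) and an FPKM in every library. FPKM, made by the authors, served only to describe levels. The authors' deposited comparison table gives log2 fold changes, p-values, a mean signal and a score (the test statistic) per transcript. Only its direction and its smallest absolute log2 fold change were used. Totals per library cover lncRNAs alone.

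Expected counts were summed per locus, rounded, filtered with filterByExpr (minimum count 10), scaled with TMM and tested by edgeR 4.0.16 (R version 4.3.3), in a quasi-likelihood model of all 9 samples with 6 residual degrees of freedom. Tests were two-sided, and calls needed a Benjamini-Hochberg adjusted p below 0.05. At an unadjusted p under 0.05 there were 600 loci and 497 transcripts. CPM uses the TMM-scaled library size. An exact permutation test of 3 against 3 cannot go below 0.1, so none was run. The fit was tested on simulated data, with the shares recovered given beside the results. Precision follows the totals: 3 counts equal 1.05 to 1.63 CPM, depending on the library.

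Deposited coordinates were matched to GENCODE mouse release M21 (GRCm38, the build of mm10) and are 1-based: 6120 transcripts equal a GENCODE transcript that way and 7 if read as 0-based. Ensembl identifiers stand beside 10600 transcripts, and 10462 were found in that release. Near means within 10 kb of a coding gene. Named loci are, among called loci, the 10 largest increases and 10 largest decreases where the level reached the median of the calls, the 5 of highest level, the 5 of smallest adjusted p and up to 6 per list; other names are said to be chosen after their values were seen. A locus that rose among those at β-cell genes is counted but not reported here by name. The loci, lists and rules were chosen with earlier results of these data known. Alternatives were DESeq2 1.42.0 (its size factors and its Wald test), library size alone, no filter, 2 groups only, a replicate block, each library left out, the most abundant feature left out, and stricter thresholds. Replicate numbers come from the labels and were not treated as pairs. Python 3.11.15, pandas 2.3.3, numpy 2.4.6 and matplotlib 3.10.9 made the tables and figures.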

Additional observations from a re-analysis of the deposited data

How the results depend on the processing

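At loci, the call of 169 became 99 with a change of at least 2-fold also required, 79 at an adjusted p under 0.01, and 104 to 115 when one control or palmitic acid library was left out (106, 104, 109, 106, 110 and 115, in the order of controls and then palmitic acid libraries 1 to 3). Stearic acid replicate 2 stood apart, and without it 240 loci were called, 168 of the 169 among them, and 16 transcripts. Of the 169, 42 that rose and 24 that fell passed in all 6 of those fits and 22 in none. DESeq2's Wald test called 197 (134 rose, 63 fell), with 167 of the 169 among them, and only the control and palmitic acid samples gave 242. Library size alone gave 81 that rose and 61 that fell, and shifted the median of all loci to -0.08. No called locus changed sign under any of these. Single transcripts gave 18 calls, against 130 by DESeq2's Wald test, 48 with no filter, 7 with the control and palmitic acid samples only, 1 at an adjusted p under 0.01, and 1 to 5 when one of the 6 libraries was left out. Deviations of same-numbered libraries from their group means had correlations of -0.04 to 0.08 at loci, which shows no pairing by number. Counting noise at low loci also lowers such correlations, so pairing was not excluded. With the replicate block 161 loci (102 rose, 59 fell) and 1 transcript were called. Of the 43 named loci and transcripts none changed direction, and 15 to 18 lost the call without one of the 6 libraries, 7 with the block, 6 with library size alone and 0 to 2 in the other refits. At the depth, spread and number of libraries of this design, 50% of simulated 2-fold changes were called at loci and 6.90% at transcripts.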
